A study of Homo sapiens with 6 samples.

Results

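Complex I genes were taken as every gene whose symbol begins with NDUF, plus the assembly factors ACAD9, ECSIT, TIMMDC1, TMEM126B, NUBPL and FOXRED1. The rule found 50 of the 19775 genes measured by a probe set with a single gene symbol. Of these, 47 encode proteins (33 subunits and 14 assembly factors) and are called members below. The other 3 are the noncoding RNAs NDUFV1-DT, NDUFV2-AS1 and NDUFB2-AS1. Probe sets for NDUFS5, NDUFS8 and NDUFC2 carry further symbols and were not used, and NDUFA4 and NDUFA4L2 were not analysed here.

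The cells were MDA-MB-231, a human breast cancer line that lacks hormone receptors and HER2 amplification. The control group was 3 arrays of these cells carrying a pLKO.1 lentiviral short hairpin against GFP, and the knockdown group was 3 arrays of cells carrying such hairpins against ATAD3A, an ATPase of the inner mitochondrial membrane. All cells had passed 2 weeks of selection in 1.0 µg/ml puromycin and were at passage 2. The labels do not say how many hairpins the knockdown cells carried or whether they came from 1 clone. Nor is it stated that the arrays of a group came from different cultures, so each p-value reflects array-to-array spread, and that spread may be technical.

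Complex I is the entry point for NADH electrons into the respiratory chain and pumps protons across the inner mitochondrial membrane. Its catalytic core is shared with bacteria: core subunits of the N module oxidise NADH, those of the Q module pass electrons through iron-sulfur clusters to ubiquinone, and membrane subunits encoded by mitochondrial DNA pump protons. Accessory subunits, all encoded in the nucleus, surround the core and are needed for its stability, and assembly factors join the modules stepwise without staying in the finished enzyme. Respiratory chain genes of the nucleus are known to share promoter elements for the factors NRF1, the ETS protein GABP, and YY1.

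Those elements are shown first, in members described below. Promoters of 300 bases (250 before and 50 after the transcription start, RefSeq, GRCh38.p14) were matched for 43 of the 47 members and searched on both strands. The NRF1 word (GCGC, any 1 base, then TGCGC) was in 8 of the 43 (18.6%) and in 6.28% of all 27305 promoters. By call it was in 6 of 24 members higher in knockdown, 0 of 5 lower and 2 of 14 past no threshold. It is in capitals in these 60-base stretches, from 4 of the higher members.

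NDUFA9, chr12:4649009-4649068, plus strand: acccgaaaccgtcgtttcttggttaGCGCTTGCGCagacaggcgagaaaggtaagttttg

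NDUFA11, chr19:5903854-5903913, minus strand: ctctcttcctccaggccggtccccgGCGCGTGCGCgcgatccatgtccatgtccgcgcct

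NDUFA3, chr19:54102757-54102816, plus strand: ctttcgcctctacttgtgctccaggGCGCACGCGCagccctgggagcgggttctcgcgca

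ACAD9, chr3:128879549-128879608, plus strand: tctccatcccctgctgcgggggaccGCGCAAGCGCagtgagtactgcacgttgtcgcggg

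The ETS word CCGGAAG was in 7 of the 43 member promoters (16.3%) and in 10.7% of all promoters. By call it was in 3 of 24 members higher in knockdown (12.5%), 2 of 5 lower and 2 of 14 past no threshold. The stretches below hold it, on either strand, in both members with the word that were lower in knockdown (NDUFA1 and NDUFB7) and in the higher member TIMMDC1.

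NDUFA1, chrX:119871760-119871819, plus strand: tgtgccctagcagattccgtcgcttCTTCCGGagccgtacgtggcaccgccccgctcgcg

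NDUFB7, chr19:14572067-14572126, minus strand: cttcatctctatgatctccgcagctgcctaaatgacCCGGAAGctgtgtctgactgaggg

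TIMMDC1, chr3:119498446-119498505, plus strand: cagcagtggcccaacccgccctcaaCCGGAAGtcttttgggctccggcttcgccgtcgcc

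The YY1 word AAGATGGCG was in 5 of the 43 (11.6%) and in 1.85% of all promoters. All 5 matches began between 11 and 26 bases after the start, and the letters around each are printed as 25 bases.

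NDUFS7, chr19:1383916-1383940, plus strand: ccgaggccAAGATGGCGgtgctgtc

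NDUFA7, chr19:8321345-8321369, minus strand: gcggacggAAGATGGCGtccgccac

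NDUFA6, chr22:42090731-42090755, minus strand: gctttggcAAGATGGCGgggagcgg

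NDUFA9, chr12:4649116-4649140, plus strand: tgtgggaaAAGATGGCGgctgccgc

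NDUFS4, chr5:53560652-53560676, plus strand: cctgcagcAAGATGGCGgcggtgtc

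The NRF1 and YY1 words were thus more frequent in these promoters than in promoters at large, a set not matched for expression. Of 24 members with a promoter that were higher in knockdown, 12 held at least one of the 3 words (50%), as did 2 of the 5 that were lower and 5 of the 14 past no threshold (35.7%). Among all promoters the share was 17%. The estrogen-related receptor word TCAAGGTCA was in 0 of the 43 and in 0.359% of all promoters. A match is a run of letters and does not show that a factor binds there.

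All expression values below are log2 values as deposited. A change is the knockdown mean minus the control mean, an error is the SD of the 3 arrays in a group or the SE from limma, and rose and fell mean an adjusted p under 0.05 in that fit over all genes. Array medians lay between 3.16 and 3.23. The values form a low mode, and genes with a mean above 4.70, the lowest point between it and the upper range, are called above the low mode. All 47 members lay above it, with means over the 6 arrays from 7.14 (NUBPL) to 14.3 (NDUFA12), while the 3 noncoding RNAs lay in the low mode and none passed the threshold.

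ATAD3A read 7.73, 7.78 and 7.80 in control and 7.41, 7.03 and 7.39 in knockdown. The groups did not overlap, and the change of -0.49 ± 0.11 (SE; adjusted p = 0.0129) is 1.41-fold lower in linear signal. Its probe set is of a type (x_at) that can cross-hybridise with related transcripts. All 5 listed markers of the line (VIM, CD44, CAV1, EGFR and AXL) were above the low mode in both groups, and CD44 (-0.34), AXL (-0.26) and CAV1 (-0.25) fell. Of the listed luminal markers, ESR1, PGR and FOXA1 lay in the low mode and ERBB2 rose by 0.51 (adjusted p = 0.00251) from 7.80 in control. Of 4 measured leukocyte and 3 measured muscle markers, 0 were above the low mode, and of 4 fibroblast markers only COL1A1 was; its change was 1.01 (adjusted p = 0.000116). Within the low mode, the leukocyte markers CD14 and LYZ changed by -1.60 and -0.18 and the fibroblast marker LUM by 0.55, all past the threshold. The part of these shifts in the results below was not tested. In bulk RNA, a smaller share of cells with a transcript and less of it per cell cannot be told apart.

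Most complex I transcripts that changed were higher in the ATAD3A knockdown. Of the 47 members, 25 rose and 5 fell, and 17 missed the threshold. Over all genes 33.6% were called, and 61.8% of the 10245 genes above the low mode, so the 63.8% called among the members is close to the share among genes of that brightness. The direction was less even. Of the members 53.2% rose and 10.6% fell, against 36.4% and 25.4% of genes above the low mode (19.7% and 13.9% of all genes). The median change was 0.20 over the members and 0.065 over genes above the low mode. These figures depended on the choice of probe set. Without the s_at and x_at types, which can match several transcripts, 13 of 37 members rose (35.1%) and the median was 0.022. Of those 37, 29 lay above the low mode on the probe set then used, with 13 rises, 4 falls and a median of 0.12. These counts include TMEM126B, then read on a probe set at 4.55 in control and 5.83 in knockdown. It is above the low mode only through the knockdown arrays, so its rise there carries no weight.

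The changes were modest: 0 members reached 2-fold, and 7 of the 30 called reached 1.5-fold (14.9% of the members). Of genes above the low mode, 9.87% were called and reached 2-fold and 24.2% reached 1.5-fold. The range ran from -0.85 (NDUFB11) to 0.94 (NDUFS7). Knockdown and control arrays did not overlap for 34 members, including all 30 called. The same held for 42% of all genes and 71.8% of genes above the low mode. Arrays of a group lay close together, with a median SD of 0.055 in control and 0.067 in knockdown over the members, and a largest SD of 0.23 (NDUFAF7 in knockdown).

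**Figure D1:**
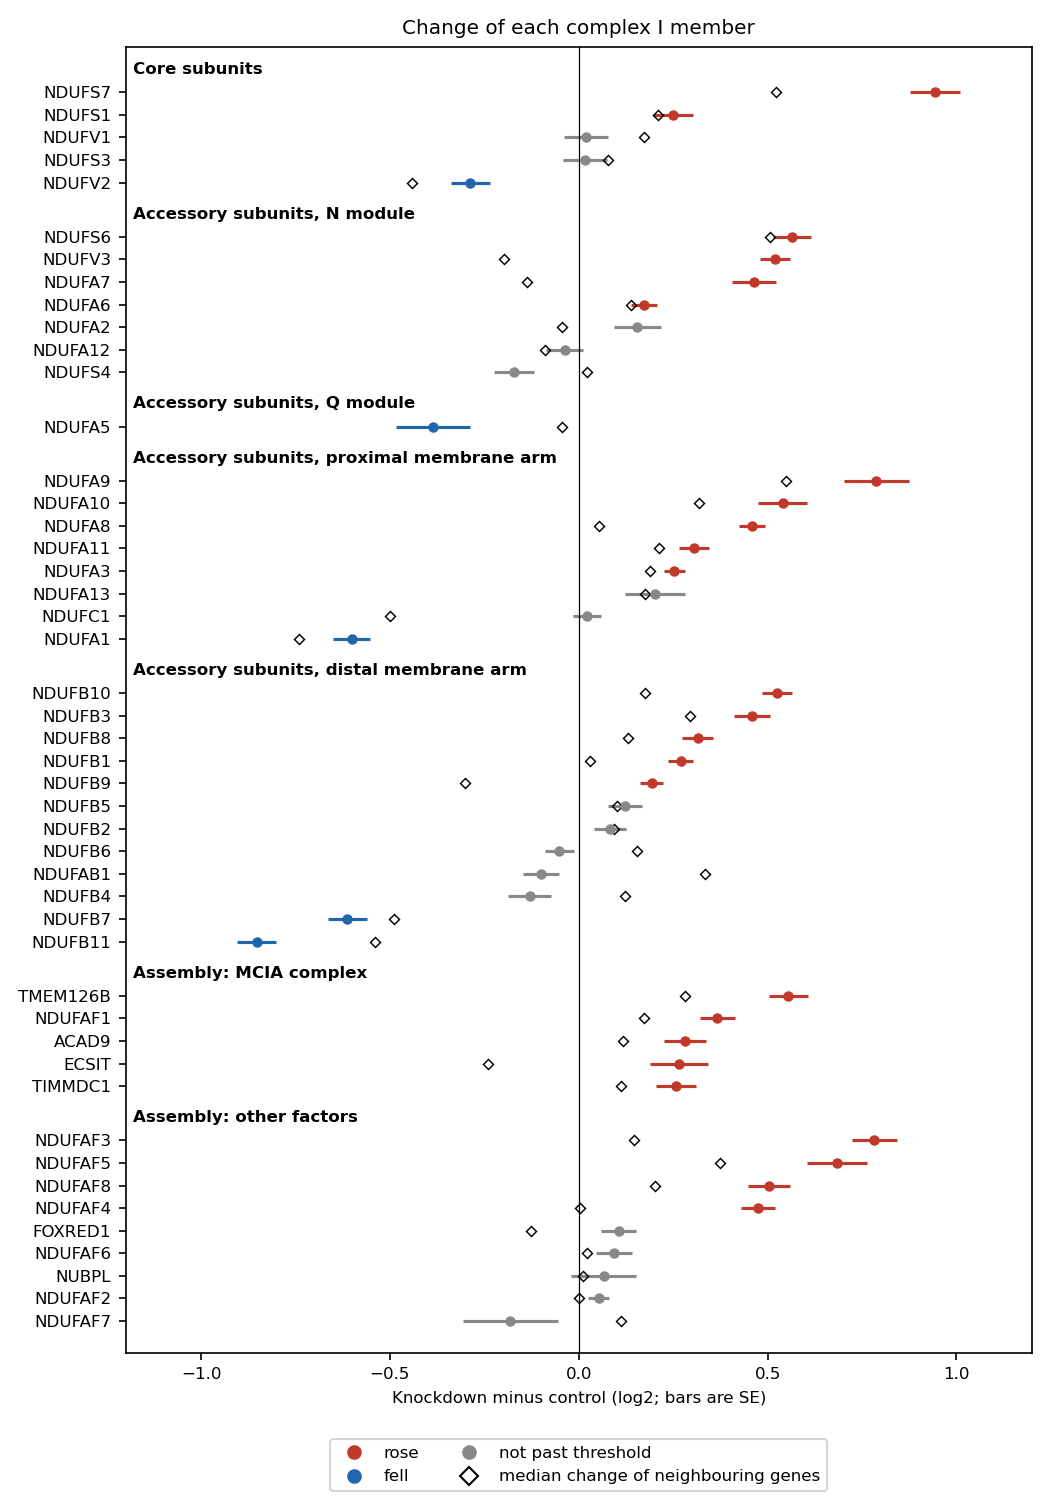
Knockdown minus control change (log2 scale, horizontal axis) of each of the 47 members, grouped by role, with SE of the limma fit as bars; filled circles are coloured by call, and open diamonds give the median change of neighbouring genes on the chromosome. NDUFS7 (0.94) and NDUFB11 (-0.85) lie at the ends, and the 9 called assembly factors all lie to the right of 0.

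Core subunits moved unequally. NDUFS7, which holds the last iron-sulfur cluster before ubiquinone, read 9.63, 9.59 and 9.42 in control and 10.42, 10.49 and 10.56 in knockdown. Every knockdown array lay well above every control array, a change of 0.94 ± 0.067 (SE; adjusted p = 0.000125) or 1.92-fold. This rests on an s_at probe set, a type that can match related transcripts, and the gene's only other probe set, at 2.15 in control, lay in the low mode and gave -0.0042. NDUFS1, the largest subunit and carrier of several iron-sulfur clusters, read 11.21, 11.23 and 11.21 in control and 11.35, 11.53 and 11.51 in knockdown. Its knockdown arrays were all higher, by a small 0.25 ± 0.053 (SE; adjusted p = 0.0123).

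NDUFV2, an iron-sulfur protein next to the NADH site, went the other way. It read 12.86, 12.84 and 12.81 in control and 12.48, 12.51 and 12.65 in knockdown, a change of -0.29 ± 0.051 (SE; adjusted p = 0.00604) with no overlap. Its partner NDUFV1, which binds NADH and flavin, did not follow it. NDUFV1 read 10.56, 10.34 and 10.44 in control and 10.47, 10.48 and 10.45 in knockdown, so the groups overlapped. The 95% interval of its change ran from -0.12 to 0.16 (adjusted p = 0.909), which leaves room for shifts of that size.

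NDUFS3, a scaffold subunit of the Q module, read 11.36, 11.25 and 11.18 in control and 11.23, 11.36 and 11.26 in knockdown. Its groups overlapped too, with a 95% interval from -0.13 to 0.16 (adjusted p = 0.929). The only accessory subunit assigned here to that module, NDUFA5, read 11.63, 11.88 and 11.76 in control and 11.44, 11.19 and 11.48 in knockdown. NDUFA5 fell by 0.39 ± 0.097 (SE; adjusted p = 0.0253) without overlap, but leaving out control replicate 2 or 3 gave an adjusted p of 0.0737 or 0.0729. With the replicate number as a block it was 0.0648, and with all its probe sets averaged 0.0955, so the call ended in each. Within the Q module, NDUFS7, NDUFS3 and NDUFA5 thus took 3 different courses.

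Of the 7 accessory subunits of the N module, 4 rose and 0 fell (1 fell at an unadjusted limma p under 0.05, NDUFS4). Among genes above the low mode 36.4% rose and 25.4% fell. NDUFS6, a zinc-binding subunit, read 12.26, 12.23 and 12.15 in control and 12.69, 12.84 and 12.81 in knockdown, a change of 0.57 ± 0.050 (SE; adjusted p = 0.000317). NDUFA7 read 10.65, 10.53 and 10.47 against 10.96, 11.08 and 10.99, a change of 0.46 ± 0.058 (SE; adjusted p = 0.00128). Both showed clear gaps between the groups. NDUFV3, which sits beside NDUFV1 and NDUFV2, read 10.82, 10.72 and 10.83 in control and 11.29, 11.34 and 11.31 in knockdown, a change of 0.52 ± 0.039 (SE; adjusted p = 0.000156), on the brighter of its probe sets. It is counted as a rise on that basis, although its other probe set fell by 0.47. NDUFA6, a LYR-motif protein, rose by 0.17 (adjusted p = 0.00844). NDUFA2, NDUFA12 and NDUFS4 had changes of 0.16, -0.038 and -0.17 and did not pass, although the NDUFS4 arrays did not overlap (adjusted p = 0.0528).

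In the group assigned here to the proximal membrane arm, next to the Q module, 5 of 8 accessory subunits rose and 1 fell. These shares are 62.5% and 12.5%, beside 36.4% and 25.4% of genes above the low mode. NDUFA9, which lies near the ubiquinone site, read 10.36, 10.19 and 10.37 in control and 10.96, 11.07 and 11.25 in knockdown. Its change of 0.79 ± 0.087 (SE; adjusted p = 0.000752), or 1.73-fold, was the largest rise among accessory subunits. NDUFA10 read 10.58, 10.35 and 10.49 against 10.94, 11.05 and 11.04, a change of 0.54 ± 0.066 (SE; adjusted p = 0.00116). The groups stood apart in both. NDUFA8, a twin-cysteine protein of the intermembrane space side, read 10.99, 10.89 and 10.92 against 11.39, 11.40 and 11.38, a change of 0.46 ± 0.034 (SE; adjusted p = 0.000153).

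NDUFA8 had the tightest knockdown arrays of all members, with an SD of 0.0081. NDUFA11 rose by 0.31 (adjusted p = 0.00146), from 12.72, 12.80 and 12.72 to 13.10, 13.05 and 13.00, and NDUFA3 rose by 0.25 (adjusted p = 0.000819). NDUFA13, also known as GRIM-19, and NDUFC1 had changes of 0.20 and 0.022 that did not pass. NDUFA1, a small X-linked subunit, was the 1 that fell here. It read 13.06, 13.02 and 13.01 in control and 12.33, 12.49 and 12.46 in knockdown, a change of -0.60 ± 0.049 (SE; adjusted p = 0.00022), which in linear signal is 1.52-fold lower.

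In the distal membrane arm 5 of 12 accessory subunits were higher, 2 lower and 5 not past the threshold. These shares, 41.7% and 16.7%, are not far from the 36.4% and 25.4% of genes above the low mode. NDUFB11, the other X-linked member, read 12.42, 12.28 and 12.31 in control and 11.45, 11.55 and 11.46 in knockdown. This was the deepest fall of any member, -0.85 ± 0.051 (SE; adjusted p = 6.633e-05), which in linear signal is 1.81-fold lower. NDUFB7, a twin-cysteine protein, read 11.34, 11.38 and 11.27 in control and 10.65, 10.80 and 10.71 in knockdown, a change of -0.61 ± 0.051 (SE; adjusted p = 0.000239). In both, every knockdown array was below every control array by a wide margin. NDUFB7 was read on an s_at probe set, and its other one, at 2.67 in control, lay in the low mode and gave -0.075 (adjusted p = 0.25 without such probe sets).

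NDUFB10, a further twin-cysteine subunit, moved the opposite way. It read 11.41, 11.32 and 11.36 against 11.83, 11.93 and 11.90, a change of 0.53 ± 0.041 (SE; adjusted p = 0.00018). NDUFB3 rose by 0.46 ± 0.047 (SE; adjusted p = 0.000569), from 11.48, 11.38 and 11.52 to 11.88, 11.97 and 11.91. NDUFB8 rose by 0.31 ± 0.041 (SE; adjusted p = 0.0016), from 12.75, 12.71 and 12.80 to 13.03, 13.05 and 13.13. None of these groups overlapped. A dimmer NDUFB8 probe set averaged 7.17 in control and was lower in every knockdown array, with a change of -0.33 (adjusted p = 0.141 over all probe sets), and averaging the NDUFB8 probe sets gave 0.13 (adjusted p = 0.127). NDUFB1 and NDUFB9 rose by 0.27 and 0.19, although a dimmer NDUFB1 probe set gave -0.0014. The acyl carrier protein NDUFAB1, which also serves mitochondrial fatty acid synthesis, and NDUFB2, NDUFB4, NDUFB5 and NDUFB6 had changes between -0.13 and 0.12 that did not pass.

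**Figure D2:**
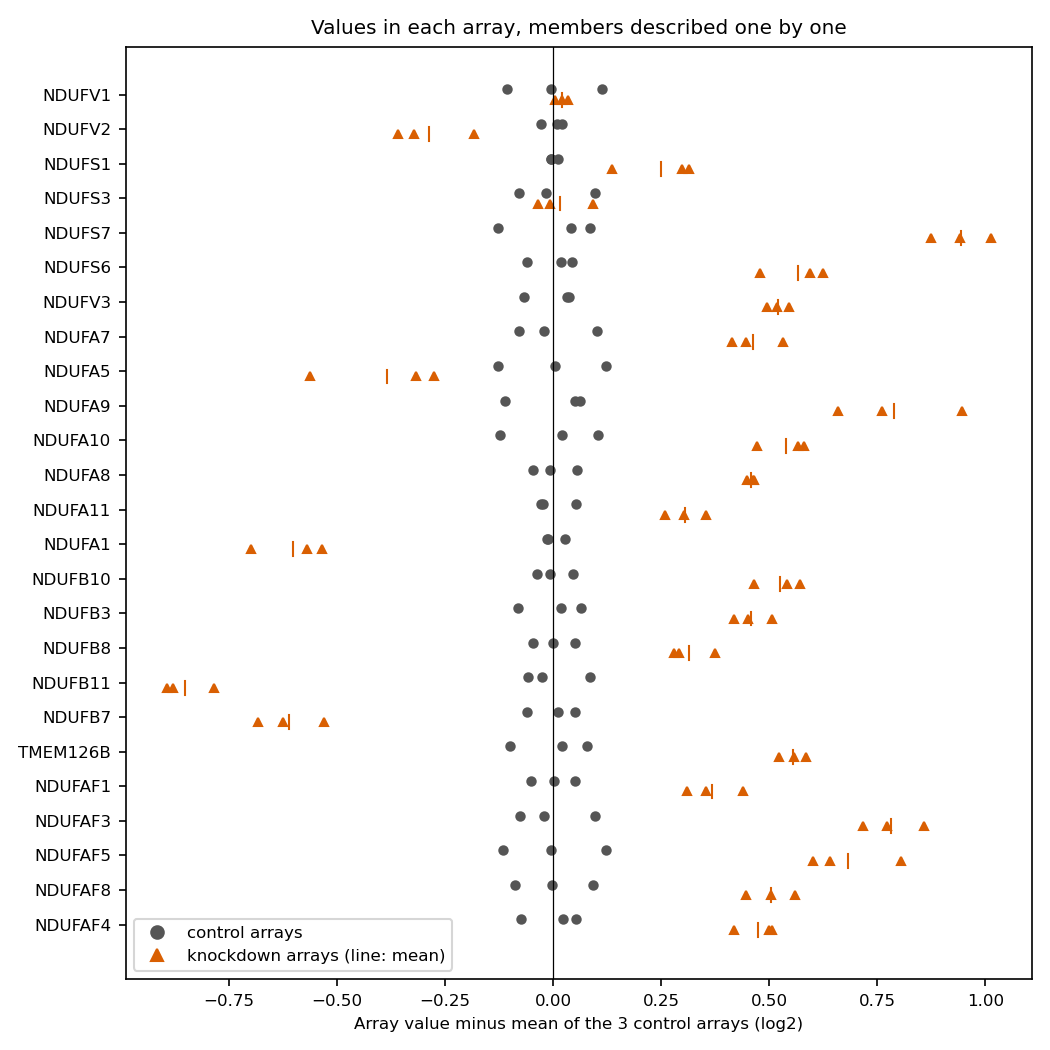
Value in each array minus the mean of the 3 control arrays (log2 scale, horizontal axis) for 25 members; circles are control arrays, triangles knockdown arrays and short lines knockdown means. The groups overlap in NDUFV1 and NDUFS3 alone among these, and NDUFB11 lies farthest to the left.

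Assembly factors among the members rose or did not pass. Of the 14, 9 rose and 0 fell by limma (0 also at an unadjusted p under 0.05), with a median change of 0.27, while 16 of the 33 subunits rose and 5 fell, with a median of 0.17. Rises were thus 64.3% of the assembly factors and 48.5% of the subunits, beside 36.4% of genes above the low mode. Falls were 0% and 15.2%, beside 25.4%. All 5 members grouped here as building the membrane arm around the MCIA complex rose, but the rule leaves out its components COA1 and TMEM186. TMEM126B, a membrane protein of that complex, read 12.53, 12.35 and 12.47 in control and 12.97, 13.04 and 13.01 in knockdown, a change of 0.55 ± 0.052 (SE; adjusted p = 0.000373). NDUFAF1 (CIA30) read 9.02, 8.97 and 8.92 against 9.28, 9.41 and 9.32, a change of 0.37 ± 0.046 (SE; adjusted p = 0.00132). Both stood clear of control. The acyl-CoA dehydrogenase paralog ACAD9 rose by 0.28 (adjusted p = 0.00987) and the translocase-like TIMMDC1 by 0.26 (adjusted p = 0.0114). The other ACAD9 probe set lay in the low mode and gave 0.0045. Assembly proteins outside the rule are given further below. Of those 10 assembly or import proteins 5 rose, TMEM186 by 0.28 among them, and COA1 fell by 0.42. The rise in the MCIA group thus holds for the members only.

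The MCIA adaptor ECSIT was the least secure call of the 30. It read 7.40, 7.37 and 7.53 in control and 7.83, 7.69 and 7.58 in knockdown, with only a narrow gap, and a change of 0.26 ± 0.078 (SE; adjusted p = 0.044). Leaving out control replicate 1 or 2 or knockdown replicate 1 or 2 ended the call (adjusted p from 0.0857 to 0.131). So did the replicate block (adjusted p = 0.0949) and quantile normalization (adjusted p = 0.0994).

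Of the 9 other factors, 4 rose (44.4%, beside 36.4% of genes above the low mode). NDUFAF3 and NDUFAF4 act as partners early in Q module assembly. NDUFAF3 read 9.95, 9.78 and 9.83 in control and 10.57, 10.63 and 10.71 in knockdown, a change of 0.78 ± 0.059 (SE; adjusted p = 0.000161). NDUFAF4 read 11.42, 11.45 and 11.32 against 11.90, 11.82 and 11.90, a change of 0.47 ± 0.045 (SE; adjusted p = 0.000421). Both partners were thus higher in every knockdown array.

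NDUFAF5, which hydroxylates an arginine of NDUFS7, and NDUFAF8, which stabilises NDUFAF5, also rose. NDUFAF5 read 9.42, 9.31 and 9.55 in control and 10.03, 10.23 and 10.07 in knockdown, a change of 0.68 ± 0.080 (SE; adjusted p = 0.000974). NDUFAF8 read 11.71, 11.62 and 11.53 against 12.12, 12.18 and 12.07, a change of 0.50 ± 0.056 (SE; adjusted p = 0.000772), while its other probe sets, both in the low mode, gave -0.0057 and 0.00033. NDUFAF7, a methyltransferase acting on a Q module subunit, had overlapping groups and a change of -0.18 (adjusted p = 0.406). A probe set at 8.50 in control was higher in every knockdown array, by 0.26 (limma adjusted p = 0.0583 over all probe sets). A dimmer probe set gave -0.097 with overlapping groups, so the NDUFAF7 direction is not settled. NDUFAF2, NDUFAF6, the iron-sulfur carrier NUBPL and the oxidoreductase FOXRED1 had changes between 0.052 and 0.11 that did not pass.

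Many members moved with the genes beside them on the chromosome. For each member, the median change was taken over the 25 nearest genes above the low mode on either side, in the order of the GRCh38.p14 gene table. Of the 30 called members, 26 had the sign of their neighbours (86.7%), where 71.8% of all called genes above the low mode did. Neighbour medians leaned upward, with a median of 0.11 at the members and 0.082 at genes above the low mode. A set that mostly rises, as the called members did, meets that sign more often. The shares were not split by direction. Across the 47 members Spearman's rho between change and neighbour median was 0.58, a description only, since all values come from the same 6 arrays and genes are not replicates. DNA copy number was not measured here, and its part in these changes was not tested.

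The neighbour medians were large beside 4 of the 5 members that fell. They were -0.54 at NDUFB11, -0.74 at NDUFA1, -0.49 at NDUFB7 and -0.44 at NDUFV2, while at NDUFA5 the median was -0.046. The falls of NDUFA1 and NDUFV2 were thus smaller than those of the genes around them. With the neighbour median subtracted, a setting chosen after seeing the data that treats the median as free of error, NDUFB11 read -0.31 (adjusted p = 0.00284) and NDUFB7 -0.12 (adjusted p = 0.0813). NDUFA1 and NDUFV2 then turned to 0.14 (adjusted p = 0.0491) and 0.15 (adjusted p = 0.0414).

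Among the members that rose, the neighbour median was 0.52 at NDUFS7, 0.55 at NDUFA9 and 0.51 at NDUFS6. Subtracting it left 0.42 at NDUFS7 (adjusted p = 0.00253), 0.24 at NDUFA9 (adjusted p = 0.0535) and 0.058 at NDUFS6 (adjusted p = 0.351). The calls of NDUFS1, NDUFA6, NDUFA3, NDUFA11 and TIMMDC1 were lost as well. Other rises had little or opposite movement around them. The neighbour median was 0.0041 at NDUFAF4, 0.029 at NDUFB1, 0.053 at NDUFA8 and 0.15 at NDUFAF3. It was -0.14 at NDUFA7, -0.20 at NDUFV3, -0.24 at ECSIT and -0.30 at NDUFB9, the 4 called members opposite in sign to their neighbours. After subtraction 23 members were called higher and 6 lower, but not the same ones. Of the 5 falls, NDUFB11 and NDUFA5 kept their call, and NDUFAB1 (-0.43, adjusted p = 0.000522), NDUFB4, NDUFB6 and NDUFS4 became lower. NDUFC1 (0.52, adjusted p = 0.000102), NDUFA2 and FOXRED1 became higher.

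**Figure D3:**
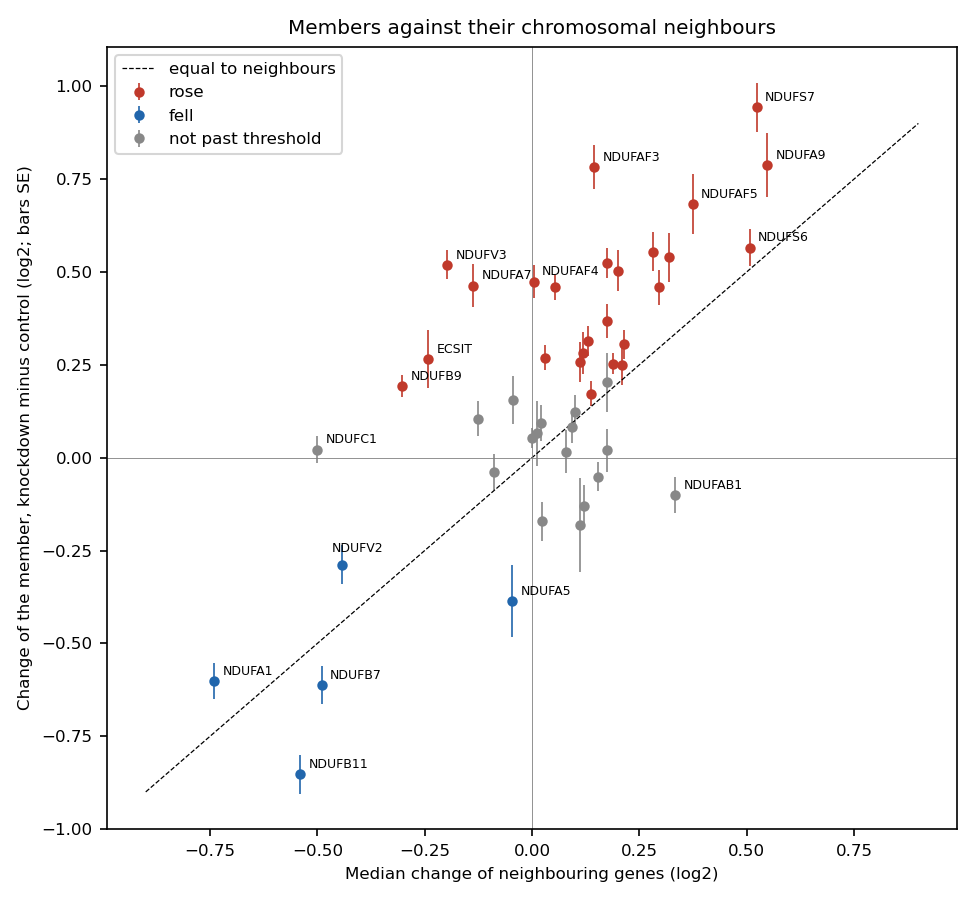
Change of each of the 47 members (log2 scale, vertical axis, bars are SE) against the median change of its neighbouring genes (log2 scale, horizontal axis), coloured by call; the dashed line marks equal change. NDUFB11, NDUFA1, NDUFB7 and NDUFV2 lie at the lower left, where neighbours also fell, and NDUFAF4 rose where the neighbour median was 0.0041.

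Other probe sets of the same genes were read where they lay above the low mode, which was so for 12 members, with p-values adjusted over all probe sets. In 4 of these (NDUFA6, NDUFA11, NDUFB10 and NDUFAF5) all such probe sets rose. The dimmer probe set of TMEM126B averaged 4.55 in control, inside the low mode, and 5.83 in knockdown, so it counts as above the low mode only through the knockdown arrays and is given without a test. In 4 (NDUFS1, NDUFB1, NDUFB8 and NDUFAF4) some rose and the rest did not pass, and in NDUFB2 and NDUFAF7 none passed.

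NDUFV3 was the exception, with probe sets called in opposite directions. Its brighter probe set rose as given above. Its dimmer one read 7.80, 7.79 and 7.85 in control and 7.30, 7.30 and 7.45 in knockdown, a change of -0.47 ± 0.052 (SE; adjusted p = 0.00156). The groups did not overlap on either probe set. NDUFV3 is known to have a long and a short isoform that differ by an exon, but the sources used here do not say which isoform each probe set reads, so no direction can be given for the gene as a whole.

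**Figure D4:**
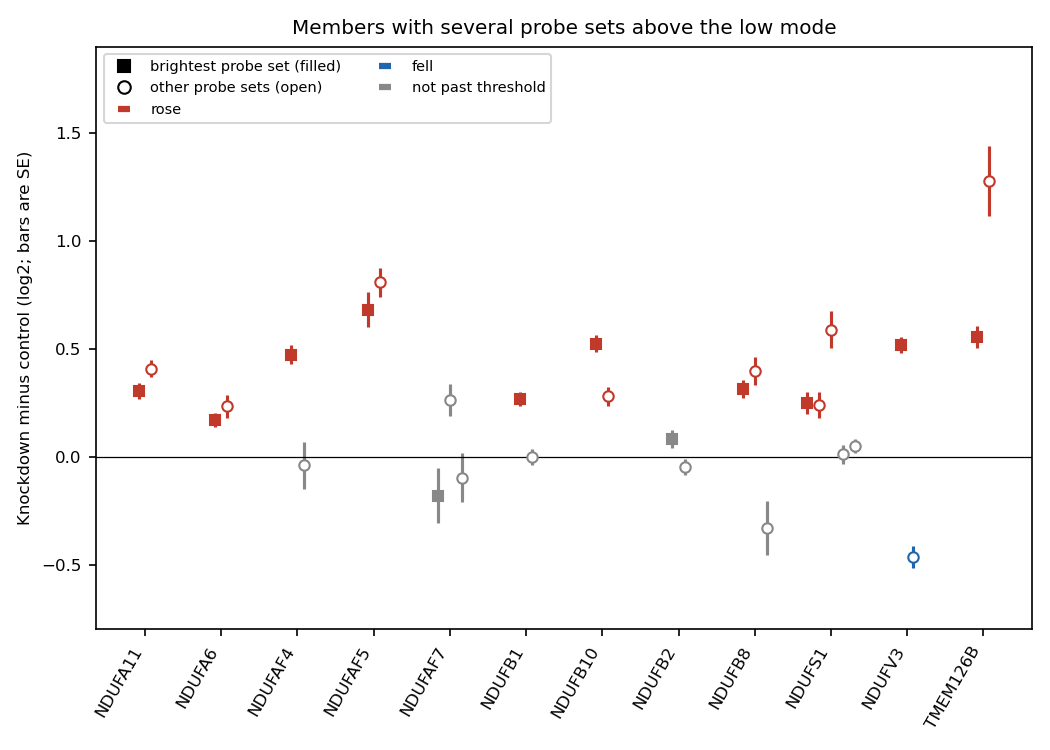
Knockdown minus control change (log2 scale, vertical axis, bars are SE) of every probe set above the low mode for the 12 members with more than 1; filled squares are the brightest probe set of a gene, open circles the others, coloured by call. The NDUFV3 probe sets lie on opposite sides of 0, at 0.52 and -0.47.

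The mitochondrial genome encodes 7 further core subunits, of which 3 had a usable probe set. ND4, a proton-pumping subunit of the distal arm, read 15.95, 15.95 and 15.94 in control and 15.81, 15.82 and 15.85 in knockdown. It fell by 0.12 ± 0.026 (SE; adjusted p = 0.0148), a small shift with tight arrays close to the top of the scale. The call ended without control replicate 2 or 3 (adjusted p = 0.0639 and 0.0563), with arrays centred on their medians (0.0768) and with the replicate block (0.102). Its other probe set gave -0.11 (adjusted p = 0.108 over all probe sets). ND2, at 15.43, 15.38 and 15.43 against 15.12, 15.24 and 15.42, had overlapping groups and a change of -0.15 (adjusted p = 0.217). ND6, encoded on the opposite mitochondrial strand, read 10.84, 11.06 and 10.97 against 11.10, 10.98 and 11.09 and overlapped as well, with a change of 0.10 (adjusted p = 0.361). None of the 3 rose at an unadjusted limma p under 0.05.

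Of 10 further proteins linked to complex I assembly or import, 5 rose and 1 fell, where 36.4% of genes above the low mode rose and 25.4% fell. TMEM70, needed for ATP synthase and complex I assembly, rose by 0.64 (adjusted p = 7.413e-05), from a control mean of 11.84 on an s_at probe set. Its dimmer probe sets, not of that type, differed. The brighter of them, at 6.48 in control, gave -0.054 (adjusted p = 0.837 over all probe sets). The other, at 4.85 in control, rose by 0.52 (adjusted p = 0.00846 over all probe sets). The distal arm factor DMAC2 rose by 0.48 (adjusted p = 0.000101). COA1 fell by 0.42 (adjusted p = 0.000276) from 10.38, and its dimmer probe sets gave 0.039 (adjusted p = 0.946) and -2.29 (adjusted p = 0.0013). Of 12 measured genes that make and deliver iron-sulfur clusters, 9 rose and 1 fell, beside the same shares of 36.4% and 25.4%. IBA57, at 4.37 in control, lay in the low mode, so 11 of the 12 were above it. The glutaredoxin GLRX5 rose by 0.74 (adjusted p = 0.000276) and the co-chaperone HSCB by 0.62 (adjusted p = 0.00469), while the scaffold ISCU fell by 0.23 (adjusted p = 0.00204).

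Of 9 regulators of respiratory genes, 4 were called higher, YY1 among them, and 2 lower, shares close to the 36.4% and 25.4% of genes above the low mode. The coactivator PPARGC1B rose by 0.78 (adjusted p = 0.000245) and its relative PPARGC1A fell by 0.38 (adjusted p = 0.0412), from a control mean of 5.30, a call that quantile normalization ended (adjusted p = 0.0536). The subunits of the ETS factor GABP parted: GABPB1 rose by 0.52 (adjusted p = 0.000104) and the DNA-binding GABPA fell by 0.72 (adjusted p = 0.00446). GABPA read 8.84, 9.16 and 8.98 in control and 8.48, 8.10 and 8.22 in knockdown, with no overlap. NRF1 and YY1 are given because their words were searched in the promoters printed above. NRF1 had a change of 0.16 that did not pass (adjusted p = 0.108). YY1 rose by 0.24 (adjusted p = 0.0385) on its brightest probe set, while others at 10.6 and 9.77 in control fell by 0.47 and 0.50 (adjusted p = 0.00054 and 0.00765 over all probe sets), so its direction is not settled.

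The other respiratory complexes, as listed, gave these counts beside the 16 rises and 5 falls of 33 complex I subunits. In complex II 2 of 3 measured subunits rose and 0 fell by limma (0 at an unadjusted p under 0.05), and in complex III 5 of 7 rose and 0 fell (0 unadjusted). In complex IV 4 of 10 rose and 3 fell, and in ATP synthase 8 of 17 rose and 3 fell. ATP5MF, at 1.73 in control, lay in the low mode, so 16 of those 17 were above it. Among genes above the low mode 36.4% rose and 25.4% fell, so the complex IV counts are close to that background. The median changes were 0.34, 0.21, 0.047 and 0.14 in that order, against 0.17 for complex I subunits. The differences between complexes were not tested.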

How the data were processed

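RNA (250 ng per array) was amplified from the 3' end and read, per the labels' protocols, on U133 Plus 2.0 arrays from Affymetrix. The authors deposited 1 table of processed values, read as log2 from their range (0.826 to 16.6). The submitters' processing notes name Partek alone, and the summary method and scaling are not given in the sources used here. Of 54675 probe sets, 62 controls were set aside and 41091 had 1 gene symbol. A gene was represented by its brightest probe set on average, with no filter on dim ones. Groups were taken from the titles and compared with limma 3.58.1 (R 4.3.3; lmFit, eBayes, two-sided, no covariates), with Benjamini-Hochberg adjustment over 19775 genes. The fit was tested on simulated data. The number of arrays limits the precision. No array was a copy of another: at most 0.0165% of values were identical. The members and lists were chosen with earlier results of these data known. Values in each array are given for the core subunits and for up to 4 rises and 4 falls of at least 0.3 per class, and for ECSIT, chosen after its values were seen; from other lists up to 2 of each are named. Further genes are given by change alone, and the low mode boundary and the neighbours above it were chosen from the data. Same-numbered arrays deviated from their group means with correlations of -0.27, -0.19 and 0.057, so the numbers were not taken to pair them. Alternatives were other normalizations, a filter on dim genes, other probe set choices, a variance trend, the replicate block, each replicate left out and removal of the neighbour median.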

Additional observations from a re-analysis of the deposited data

How the results depend on the processing

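The counts of rises and falls among members, subunits and assembly factors stayed within 1.5 times the reported ones under every alternative but 1. Dropping s_at and x_at probe sets left 37 of the 47 members, of which 13 rose. These were 9 subunits and 4 assembly factors, with TMEM126B above the low mode only through its knockdown arrays. Of the other listed genes, 20 rose against 37 when those probe sets were dropped. That choice turned NDUFV3 to -0.47, NDUFS7 to -0.0042, NDUFB1 to -0.0014, NDUFAF8 to -0.0057, TMEM70 to -0.054, COA1 to 0.039 and YY1 to -0.47, since it reads a dimmer probe set of each gene. Averaging probe sets turned YY1 to -0.063 and left NDUFV3 at 0.027 (adjusted p = 0.743) and NDUFB8 at 0.13 (adjusted p = 0.127).

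Subtracting the median of neighbours above the low mode, added after seeing the data, turned NDUFA1 to 0.14 and NDUFV2 to 0.15. Over all genes it gave 4730 rises and 7229 falls against 3895 and 2749. Genes in the low mode made up 3955 of those falls, against 145 as reported, and above it there were 3242 rises and 3274 falls. Over all neighbours, dim ones included, as first planned, it changed the call of 0 members.

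With each replicate left out, 24 to 26 members rose and 4 to 6 fell, and 28 of the 30 called members passed in every such fit, the exceptions being NDUFA5 and ECSIT. ATAD3A ranged from -0.56 to -0.37. The replicate block changed no other call among the members than those 2; the numbers do not pair the arrays by the check of deviations. Of the 30 called members, 12 passed under every alternative that gave a value. TMEM126B is among the 12, but without s_at and x_at types it rests on a probe set above the low mode only through the knockdown arrays. Arrays give no depth, and 3 arrays in a group limit the precision.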
